A study of Mus musculus with 21 samples.

Results

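The 35 genes described here encode proteins that build and run the mitotic spindle, from the cyclins and Cdk1 that start mitosis to the motors and scaffold proteins that finish cell division. They were picked by name for their roles, at a time when earlier results of these data were known, and no count enters the rule. All 35 were found among its 54532 genes and all 35 passed the filter on low counts, which left 16262 genes. RNA was read from bone marrow cells of C57BL/6 mice that had been enriched on beads for c-kit (CD117, the receptor for stem cell factor on blood progenitors). There were 3 libraries of Asxl1-/-Jak2V617F, 3 of Jak2V617F, 2 of Asxl1-/- and 3 of WT. Asxl1-/- marks loss of a chromatin regulator and Jak2V617F the activated Jak2 kinase of myeloproliferative neoplasms. The sources used here give neither the driver of either allele nor the age of the mice. The chromatin samples of the study are not analysed here.

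Entry into mitosis depends on Cdk1 bound to cyclin B. Kinetochores then join chromosomes to spindle microtubules, the checkpoint delays anaphase until every chromosome is attached, and the anaphase-promoting complex destroys cyclin B and securin. Most genes of this programme are silent in resting cells and are switched on together in G2. In dividing cells the FOXM1 factor and the complex of B-MYB with MuvB drive them, while in resting cells the DREAM complex represses them through a promoter element called the CHR. In bone marrow the c-kit+ fraction holds most of the dividing blood progenitors.

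Promoter windows of 250 bases before to 50 bases after the start, from RefSeq on GRCm38.p6, were found for 29 of the 35 genes. A CHR (TTTGAA or TTCGAA on either strand) stood in the window of 23 of them, 79.3%, against 21.7% of all genes in that table. It lay within 50 bases of the start in 21, a count that was not made for all genes. At least 2 CCAAT boxes (CCAAT on either strand, the site of NF-Y) were found in 16 of the 29, 55.2%, against 13.3% of all genes. An E2F site (TTTGGCGC, TTTGCCGC, TTTCGCGC or TTTCCCGC on either strand) was found in 1 of the 29, Cdk1, which is 3.45%, against 2.6% of all genes. Sites of different motifs can share at most 1 base. The stretches printed here run from 120 bases before to 30 bases after the start. They are shown because these genes, which all hold both motifs in this stretch, differed in opposite ways between genotypes. Capitals mark the CHR (TTTGAA or its reverse complement) and the CCAAT box (CCAAT or ATTGG).
Kif23, chr9:61946770-61946919, minus strand: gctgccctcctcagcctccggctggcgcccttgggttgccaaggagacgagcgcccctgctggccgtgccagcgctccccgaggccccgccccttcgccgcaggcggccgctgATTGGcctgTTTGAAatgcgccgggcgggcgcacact
Spc25, chr2:69206184-69206333, minus strand: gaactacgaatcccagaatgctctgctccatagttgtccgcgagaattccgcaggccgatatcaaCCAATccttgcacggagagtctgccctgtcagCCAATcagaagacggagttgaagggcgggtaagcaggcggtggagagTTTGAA
Cdk1, chr10:69352883-69353032, minus strand: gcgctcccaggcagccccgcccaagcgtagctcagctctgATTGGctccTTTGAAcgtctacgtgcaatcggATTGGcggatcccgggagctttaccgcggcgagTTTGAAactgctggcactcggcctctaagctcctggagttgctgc
Cenpa, chr5:30666766-30666915, plus strand: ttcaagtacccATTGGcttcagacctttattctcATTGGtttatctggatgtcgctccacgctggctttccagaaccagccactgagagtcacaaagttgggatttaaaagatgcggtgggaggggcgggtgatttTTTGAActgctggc
Cenpf, chr1:189688057-189688206, minus strand: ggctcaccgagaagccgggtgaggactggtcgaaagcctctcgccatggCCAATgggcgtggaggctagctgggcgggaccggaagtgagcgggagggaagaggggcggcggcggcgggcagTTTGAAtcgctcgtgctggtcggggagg
Ccnb2, chr9:70421525-70421674, minus strand: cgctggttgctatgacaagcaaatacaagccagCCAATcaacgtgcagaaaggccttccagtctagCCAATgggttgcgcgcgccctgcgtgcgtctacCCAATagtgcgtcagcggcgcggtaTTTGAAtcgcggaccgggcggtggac
Of the 23 members with a CHR in the window, 9 were higher and 1 lower past an adjusted p of 0.05 by edgeR's quasi-likelihood test in Asxl1-/-Jak2V617F against Jak2V617F (24.5% and 19.8% of all genes), 3 higher and 11 lower in Jak2V617F against WT (24.4% and 29.2% of all genes), and 4 higher and 4 lower in Asxl1-/- against WT (11.3% and 11.2% of all genes). Of the 6 without, the counts were 1 and 0, 1 and 1, and 2 and 1 in the same order. A match to these letters is a description of the sequence and not a measured binding site.

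Libraries held 16198011 to 19196283 counts. Asxl1 was read at 89 to 100 CPM (counts scaled to a common library size with TMM factors) in Asxl1-/-Jak2V617F and Asxl1-/- libraries and at 132 to 196 CPM in the others, and the part of the gene that the allele removes is not given in the sources used here. Kit lay between 219 and 338 CPM in every library. The Jak2V617F libraries stood apart in the marker genes of several cell types. Their 10 erythroid markers summed to 3317 to 4570 CPM, against 815 to 2159 CPM elsewhere, and their 6 dendritic cell and MHC class II markers to 2579 to 3503 CPM, against 229 to 512 CPM. Their 6 primary granule markers summed to 694 to 1234 CPM, against 10035 to 21324 CPM, and their 6 late neutrophil markers to 1828 to 4890 CPM, against 23896 to 53608 CPM. None of these 28 markers was at 0 in any library. Their 6 stem cell markers summed to 31 to 43.3 CPM, against 152 to 261 CPM, and their 6 megakaryocyte markers to 18.5 to 23.9 CPM, against 48.5 to 97.2 CPM. The sums of 5 T cell markers overlapped, at 17.3 to 54.7 CPM in Jak2V617F, against 2.12 to 18.9 CPM elsewhere. In bulk RNA, fewer cells of a type and less RNA per cell cannot be told apart. Y-linked reads were found in both Asxl1-/- libraries and in Jak2V617F 2, while the other 8 libraries had Xist at 1390 to 2150 CPM. Every WT and every Asxl1-/-Jak2V617F library was thus female. Between Asxl1-/- and either of these groups, genotype and sex cannot be told apart within the compared libraries. The interaction uses the same Asxl1-/- libraries.

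Together the 35 genes summed to between 6146 and 7049 CPM in the 11 libraries. Their CPM summed to 6479, 6609 and 7049 in Asxl1-/-Jak2V617F, to 6243, 6358 and 6575 in Jak2V617F, to 6309 and 6146 in Asxl1-/-, and to 6527, 6946 and 7010 in WT. The Asxl1-/- sums lay below those of Asxl1-/-Jak2V617F and WT and overlapped those of Jak2V617F, although as a share of all counts, without TMM factors, they did not overlap (0.577% and 0.567% in Asxl1-/-, against 0.654% to 0.691% in Jak2V617F), and the Asxl1-/-Jak2V617F sums overlapped those of Jak2V617F and WT. Mki67 and Top2a weigh heavily in these sums: together they had 1565 and 1537 CPM in Asxl1-/-, against 1970 to 2309 CPM in WT. The median log2 difference of the 35 members in Asxl1-/- against WT was 0.03, so the lower sum does not describe most members. Per kilobase of gene length, over the mean of all libraries, the highest levels were 113 CPM per kb for Mki67, 98.4 for Cdc20, 93.5 for Top2a and 89.9 for Ccnb2. The order differed between genotypes: in Asxl1-/- Ccnb2 (108) and Cdc20 (107) lay above Mki67 (75.4). The lowest were 7.38 CPM per kb for Cenpf and 8.44 for Ndc80. Replicates lay close together, with a median SD of 0.08 on the log2 scale over the members in Asxl1-/-Jak2V617F, 0.09 in Jak2V617F, 0.03 in Asxl1-/- and 0.09 in WT. Ube2c had the widest spread, 0.25 in Asxl1-/-Jak2V617F and 0.30 in WT. The map of levels by library shows that the genotypes differed in which members were high.

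**Figure D1:**
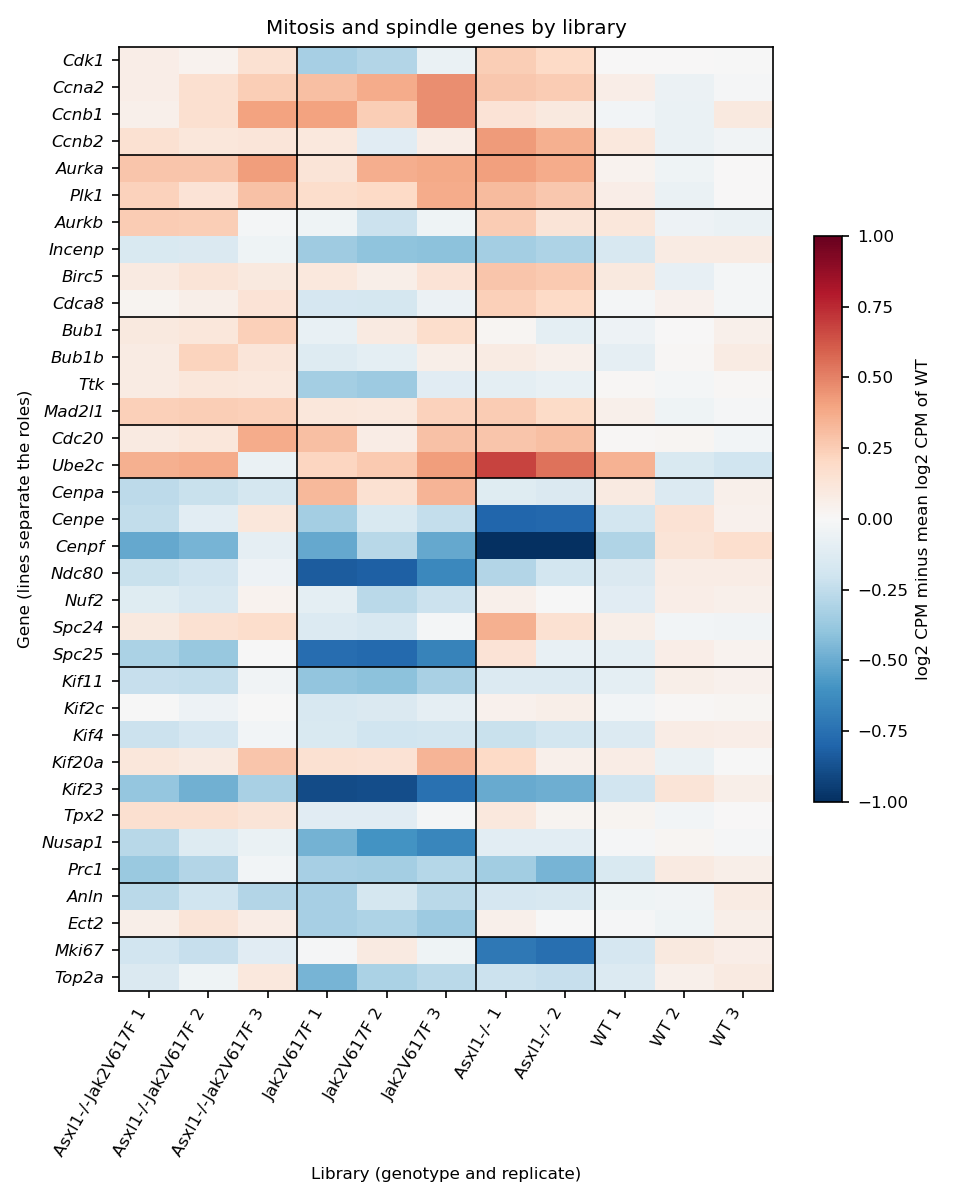
Level of each of the 35 genes (rows, with lines between roles) in each of the 11 libraries (columns), as log2 CPM minus the mean log2 CPM of WT. Kif23, Ndc80 and Spc25 are lowest in the 3 Jak2V617F libraries, and Cenpf, Cenpe and Mki67 in the 2 Asxl1-/- libraries, while Ccna2 and Aurka lie above the WT mean in all 8 mutant libraries.

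Rising and falling members stood side by side within the set. In Asxl1-/-Jak2V617F against Jak2V617F, 14 of the 35 members were higher and 2 lower by edgeR's quasi-likelihood test at an adjusted p of 0.05, which is 45.7% of the members against 44.3% of all genes tested. Of all genes, 24.5% were higher and 19.8% lower, and the median log2 difference was 0.11 for the members and -0.01 for all genes. The libraries did not overlap for 18 members higher and 3 lower, against 28.4% and 25.5% of all genes. In Jak2V617F against WT, 5 members were higher and 13 lower, 51.4% against 53.5% of all genes (24.4% higher and 29.2% lower), with medians of -0.13 and -0.05. There, 8 members higher and 15 lower did not overlap, against 27.7% and 33.3% of all genes. In both comparisons the share called in either direction was near that of all genes. Split by direction it was not: against the shares of all genes, more members were higher and fewer lower in the first comparison, and fewer were higher in the second, a difference that was not tested. All genes include many read at lower levels than the members. Genes with a mean log2 CPM above 5 were split into under 4000, 4000 to 8000, and 8000 or more bases. In the first comparison 31%, 30.9% and 28.5% of these were higher and 21.2%, 25% and 26% lower. In the second, 44%, 35.8% and 31.2% were higher and 25.4%, 30.6% and 33.6% lower. In each band the share called in either direction was above that of the members. Both comparisons use the same Jak2V617F libraries, so a gene low in those libraries is lower in one and higher in the other. The erythroid, granule and MHC class II marker sums given above differ between the same groups, and their part in the members' calls was not tested. In Asxl1-/- against WT, 8 members were higher and 6 lower, 40% against 22.5% of all genes (11.3% higher and 11.2% lower), with medians of 0.03 and -0.01. Of genes with a mean log2 CPM above 5, 41.7%, 14.4% and 4.36% were higher and 0.876%, 7.31% and 32.1% lower in the same bands. No overlap was found for 14 members higher and 13 lower, against 28.7% and 28.5% of all genes. In Asxl1-/-Jak2V617F against WT, 2 were higher and 2 lower, 11.4% against 15.1% of all genes (8.3% higher and 6.76% lower), with medians of 0.08 and -0.02, and 11 higher and 4 lower members did not overlap, against 17.1% and 19.4%. In Asxl1-/-Jak2V617F against Asxl1-/-, 3 were higher and 0 lower, 8.57% against 5.53% of all genes (3.31% higher and 2.22% lower), with medians of -0.02 and 0.00, and 10 higher and 9 lower members did not overlap, against 21% and 22.8%.

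**Figure D2:**
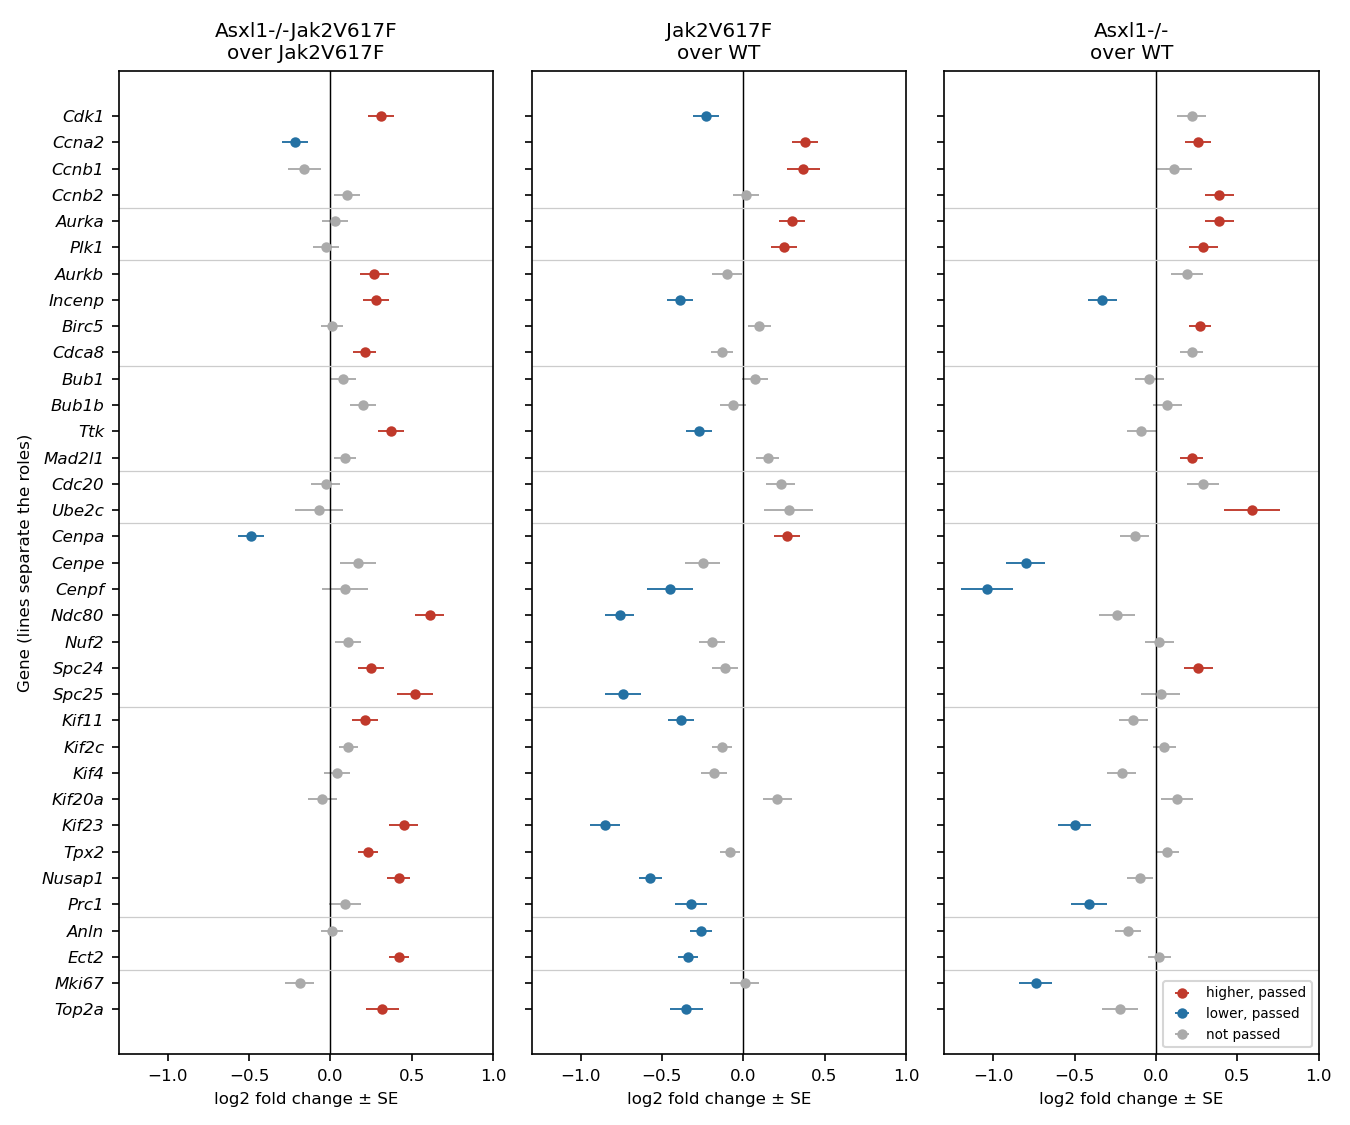
Log2 fold change of each of the 35 genes with its SE in 3 comparisons, red where higher and blue where lower at an adjusted p under 0.05, grey where not passed. The left and middle panels share the Jak2V617F libraries. Kif23 has the lowest value in the middle panel (-0.85) and Cenpf in the right panel (-1.04).

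In Jak2V617F against WT, the kinase of mitotic entry was lower and 2 of its cyclins, Ccna2 and Ccnb1, were higher. The 2 cyclins kept their calls in all 15 alternative fits. The call of Cdk1 was lost in 11 of the 15, with log2 values of -0.30 to -0.14. In Asxl1-/- against WT the values of Cdk1 and its 3 cyclins were all above 0. Cdk1, the kinase itself, stood at 161, 158 and 171 CPM in Asxl1-/-Jak2V617F, against 122, 125 and 147 CPM in Jak2V617F, with 182 and 177 CPM in Asxl1-/- and 154, 154 and 153 CPM in WT. Every Jak2V617F library was below every other library. Cdk1 rose by 0.31 ± 0.08 (log2, SE) in Asxl1-/-Jak2V617F over Jak2V617F (adjusted p = 0.00754) and fell by 0.23 ± 0.08 in Jak2V617F against WT (adjusted p = 0.0302). Its difference in Asxl1-/- against WT was 0.22 ± 0.09 (adjusted p = 0.0893). Ccna2, cyclin A2, which acts from S phase to early mitosis, had 235, 250 and 265 CPM in Asxl1-/-Jak2V617F, against 275, 289 and 309 CPM in Jak2V617F, with 269 and 266 CPM in Asxl1-/- and 235, 214 and 222 CPM in WT. Its rise in Jak2V617F against WT was 0.38 ± 0.08 (adjusted p = 0.00126). It fell by 0.22 ± 0.08 in Asxl1-/-Jak2V617F over Jak2V617F (adjusted p = 0.0341) and rose by 0.26 ± 0.08 in Asxl1-/- against WT (adjusted p = 0.0472). Ccnb1, cyclin B1, had 172, 186 and 219 CPM in Asxl1-/-Jak2V617F, against 219, 197 and 229 CPM in Jak2V617F, with 182 and 178 CPM in Asxl1-/- and 163, 158 and 177 CPM in WT. It rose by 0.37 ± 0.10 in Jak2V617F against WT (adjusted p = 0.00649), with no overlap, and differed by -0.16 ± 0.10 in Asxl1-/-Jak2V617F against Jak2V617F (adjusted p = 0.192), where the groups overlapped. Ccnb2, cyclin B2, was highest in Asxl1-/- at 170 and 162 CPM, against 136, 121 and 123 CPM in WT, a rise of 0.39 ± 0.09 (adjusted p = 0.0103). It had 140, 137 and 138 CPM in Asxl1-/-Jak2V617F, against 136, 117 and 133 CPM in Jak2V617F.

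The spindle kinases Aurka and Plk1 were higher in Jak2V617F and in Asxl1-/- than in WT, but in Asxl1-/- neither call held without Asxl1-/- 1 or without Asxl1-/- 2. Over the 14 alternatives there, Aurka ranged from 0.15 to 0.44 on the log2 scale and lost its call in 5, and Plk1 ranged from 0.02 to 0.37 and lost it in 8. Aurka, which matures centrosomes and builds spindle poles, had 100, 99.6 and 110 CPM in Asxl1-/-Jak2V617F, against 90.2, 106 and 107 CPM in Jak2V617F, with 110 and 106 CPM in Asxl1-/- and 84.4, 79.8 and 82.6 CPM in WT. All 8 mutant libraries lay above all 3 WT libraries. It rose by 0.33 ± 0.08 in Asxl1-/-Jak2V617F (adjusted p = 0.024), by 0.30 ± 0.08 in Jak2V617F (adjusted p = 0.00902) and by 0.39 ± 0.09 in Asxl1-/- (adjusted p = 0.0119), each against WT. Plk1, the polo kinase needed from mitotic entry to cytokinesis, had 155, 145 and 162 CPM in Asxl1-/-Jak2V617F, against 149, 152 and 170 CPM in Jak2V617F, with 164 and 159 CPM in Asxl1-/- and 138, 126 and 132 CPM in WT. Its rise was 0.25 ± 0.08 in Jak2V617F (adjusted p = 0.0158) and 0.29 ± 0.09 in Asxl1-/- (adjusted p = 0.0306), each against WT. Asxl1-/-Jak2V617F and Jak2V617F did not differ past the threshold in either kinase. With gene length as an offset, Aurka (2531 bases) and Plk1 (2199 bases) lost each of their calls against WT. Genes under 4000 bases with a mean log2 CPM above 5 had medians of 0.15 to 0.36 in the mutant libraries, as log2 CPM minus the WT mean. The part of gene length in the rise of the 2 kinases was not tested.

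In the chromosomal passenger complex, which corrects faulty attachments and steers cytokinesis, the scaffold Incenp had the largest difference in Jak2V617F against WT and in Asxl1-/- against WT. Incenp had 256, 259 and 277 CPM in Asxl1-/-Jak2V617F, against 223, 216 and 215 CPM in Jak2V617F, with 226 and 230 CPM in Asxl1-/- and 256, 302 and 302 CPM in WT. Both single mutants lay below every WT library. It fell by 0.39 ± 0.08 in Jak2V617F (adjusted p = 0.00127) and by 0.33 ± 0.09 in Asxl1-/- (adjusted p = 0.0219), each against WT, and rose by 0.28 ± 0.08 in Asxl1-/-Jak2V617F against Jak2V617F (adjusted p = 0.0138). Aurkb, the kinase of the complex, had 157, 157 and 130 CPM in Asxl1-/-Jak2V617F, against 128, 114 and 128 CPM in Jak2V617F, with 157 and 144 CPM in Asxl1-/- and 143, 128 and 126 CPM in WT. The Asxl1-/-Jak2V617F and Jak2V617F libraries of Aurkb did not overlap but lay close (0.27 ± 0.09, adjusted p = 0.0372). Birc5, survivin, which brings the complex to centromeres, rose by 0.27 ± 0.07 in Asxl1-/- against WT (152 and 150 CPM in Asxl1-/-, against 134, 118 and 124 CPM in WT; adjusted p = 0.0255). It had 133, 136 and 134 CPM in Asxl1-/-Jak2V617F, against 134, 130 and 137 CPM in Jak2V617F. Cdca8, borealin, averaged 175 ± 6.84 CPM in Asxl1-/-Jak2V617F, against 152 ± 6.76 CPM in Jak2V617F (SD, n = 3 each), a rise of 0.21 ± 0.07 (adjusted p = 0.0248).

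Of the 4 checkpoint genes, Ttk was the one called in both comparisons with Jak2V617F. Ttk, the Mps1 kinase at the head of the checkpoint, had 55.8, 56.8 and 56.7 CPM in Asxl1-/-Jak2V617F, against 41.5, 40.9 and 48.6 CPM in Jak2V617F, with 49.2 and 49.9 CPM in Asxl1-/- and 53, 52 and 53 CPM in WT. Every Jak2V617F library was below every other. It rose by 0.37 ± 0.08 in Asxl1-/-Jak2V617F over Jak2V617F (adjusted p = 0.00385) and fell by 0.27 ± 0.08 in Jak2V617F against WT (adjusted p = 0.0177). Mad2l1, the Mad2 protein that blocks Cdc20, had 130.2, 130.7 and 130.1 CPM in Asxl1-/-Jak2V617F, against 118.8, 118.5 and 128.9 CPM in Jak2V617F, with 131.4 and 125.7 CPM in Asxl1-/- and 114.3, 106.7 and 109.4 CPM in WT. It rose by 0.24 ± 0.07 in Asxl1-/-Jak2V617F (adjusted p = 0.032) and by 0.22 ± 0.07 in Asxl1-/- (adjusted p = 0.0472), each against WT. Bub1, a kinetochore kinase, passed in none of the comparisons. It had 106, 107 and 117 CPM in Asxl1-/-Jak2V617F, against 94.2, 105 and 112 CPM in Jak2V617F, with 100 and 92.7 CPM in Asxl1-/- and 95.6, 99.3 and 102 CPM in WT. Bub1b, BubR1 of the checkpoint complex, ranged from 180 to 230 CPM over the 11 libraries and differed by 0.20 ± 0.08 in Asxl1-/-Jak2V617F against Jak2V617F (adjusted p = 0.0615).

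The checkpoint's target Cdc20, which activates the anaphase-promoting complex, had 173, 177 and 211 CPM in Asxl1-/-Jak2V617F, against 201, 172 and 200 CPM in Jak2V617F, with 198 and 201 CPM in Asxl1-/- and 164, 165 and 160 CPM in WT. Its mutant libraries all lay above WT, but the differences did not pass, at 0.23 ± 0.09 in Jak2V617F (adjusted p = 0.0512) and 0.29 ± 0.10 in Asxl1-/- (adjusted p = 0.0565), each against WT. Ube2c, the ubiquitin-conjugating enzyme of that complex, had 181, 183 and 135 CPM in Asxl1-/-Jak2V617F, against 164, 170 and 189 CPM in Jak2V617F, with 226 and 206 CPM in Asxl1-/- and 180, 128 and 123 CPM in WT. It rose by 0.59 ± 0.17 in Asxl1-/- against WT (adjusted p = 0.0302), and its difference in Jak2V617F against WT was 0.28 ± 0.15 (adjusted p = 0.148). Of 15 other genes of the anaphase-promoting complex, 1 was higher and 1 lower in Asxl1-/-Jak2V617F against Jak2V617F, and 7 were higher and 1 lower in Jak2V617F against WT (medians 0.03 and 0.16). That is 13.3% and 53.3% of them, against 44.3% and 53.5% of all genes. Anapc1, a scaffold subunit, fell by 0.33 ± 0.07 in Asxl1-/-Jak2V617F over Jak2V617F (adjusted p = 0.00343) and rose by 0.60 ± 0.07 in Jak2V617F against WT (adjusted p = 4.03e-05).

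At the kinetochore, the Ndc80 complex joins the inner kinetochore to microtubules. Ndc80 and Nuf2 form its microtubule-binding end, and Spc24 and Spc25 its inner end. Ndc80 had 56.2, 57.6 and 63.5 CPM in Asxl1-/-Jak2V617F, against 36.9, 37.3 and 42 CPM in Jak2V617F, with 53.7 and 57.9 CPM in Asxl1-/- and 59.5, 69 and 69 CPM in WT. Spc25 had 51.2, 49 and 63.6 CPM in Asxl1-/-Jak2V617F, against 37.5, 37.1 and 40 CPM in Jak2V617F, with 70.1 and 60.5 CPM in Asxl1-/- and 59.4, 66.5 and 65.4 CPM in WT. In both genes every Jak2V617F library lay below every other library. Ndc80 fell by 0.76 ± 0.09 in Jak2V617F against WT (adjusted p = 4.22e-05) and rose by 0.61 ± 0.09 in Asxl1-/-Jak2V617F against Jak2V617F (adjusted p = 0.000303). Spc25 fell by 0.74 ± 0.11 (adjusted p = 0.00016) and rose by 0.52 ± 0.11 (adjusted p = 0.00256) in the same comparisons. The fold changes of their partners were nearer to 0. Nuf2 differed by -0.19 ± 0.08 in Jak2V617F against WT (adjusted p = 0.0647) and by 0.11 ± 0.08 in Asxl1-/-Jak2V617F against Jak2V617F (adjusted p = 0.298). Spc24 differed by -0.11 ± 0.08 in Jak2V617F against WT (adjusted p = 0.271) and rose by 0.25 ± 0.08 in Asxl1-/-Jak2V617F against Jak2V617F (adjusted p = 0.0214). Whether the subunits differ from each other in response was not tested. Ndc80 differed by -0.24 ± 0.11 in Asxl1-/- against WT (adjusted p = 0.122), and Spc24 rose there by 0.26 ± 0.09 (adjusted p = 0.0497).

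**Figure D3:**
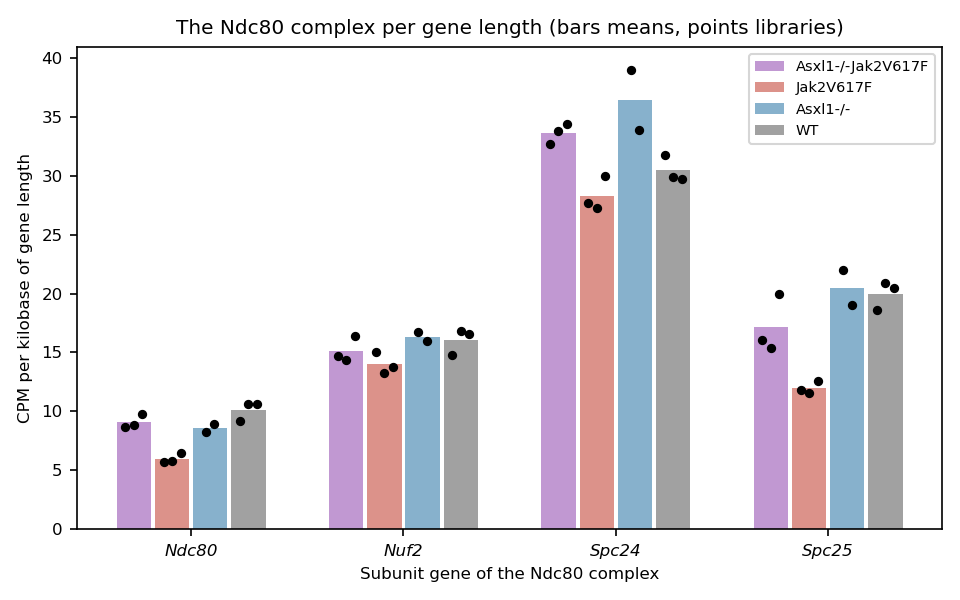
Level of the 4 subunit genes of the Ndc80 complex in CPM per kilobase of gene length, with bars for the mean of each genotype and points for libraries. In Jak2V617F, Ndc80 and Spc25 are below every library of the other genotypes, while the Nuf2 libraries of Jak2V617F and WT overlap.

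Among the other kinetochore members, Cenpa was highest in Jak2V617F, and Cenpe and Cenpf were lowest in Asxl1-/-. Cenpa, the histone H3 variant that marks centromeres, had 175, 180 and 186 CPM in Asxl1-/-Jak2V617F, against 263, 233 and 266 CPM in Jak2V617F, with 193 and 190 CPM in Asxl1-/- and 224, 191 and 217 CPM in WT. It fell by 0.49 ± 0.08 in Asxl1-/-Jak2V617F over Jak2V617F (adjusted p = 0.000467) and rose by 0.27 ± 0.08 in Jak2V617F against WT (adjusted p = 0.0138). Hjurp, the chaperone that deposits Cenpa, went the other way: it rose by 0.59 ± 0.12 in Asxl1-/-Jak2V617F over Jak2V617F (adjusted p = 0.00222) and fell by 0.84 ± 0.12 in Jak2V617F against WT (adjusted p = 0.000148). Cenpe, a kinesin that carries chromosomes to the spindle equator, had 141, 155 and 181 CPM in Asxl1-/-Jak2V617F, against 132, 150 and 142 CPM in Jak2V617F, with 95.9 and 96.6 CPM in Asxl1-/- and 147, 184 and 172 CPM in WT. Cenpf, a large outer kinetochore protein, had 102, 105 and 137 CPM in Asxl1-/-Jak2V617F, against 102, 120 and 102 CPM in Jak2V617F, with 70.7 and 72.5 CPM in Asxl1-/- and 118, 159 and 164 CPM in WT. For both, the Asxl1-/- libraries were the lowest of all 11. Cenpe fell by 0.80 ± 0.12 (adjusted p = 0.00242) and Cenpf by 1.04 ± 0.16 (adjusted p = 0.00263) in Asxl1-/- against WT. In Asxl1-/-Jak2V617F against Asxl1-/- they rose by 0.72 ± 0.12 (adjusted p = 0.00854) and 0.68 ± 0.16 (adjusted p = 0.0326). In Jak2V617F against WT, Cenpf fell by 0.45 ± 0.14 (adjusted p = 0.018) and Cenpe differed by -0.25 ± 0.11 (adjusted p = 0.0703). Of 28 other kinetochore and centromere genes, 4 were higher and 3 lower in Asxl1-/-Jak2V617F against Jak2V617F, 3 higher and 6 lower in Jak2V617F against WT, and 2 higher and 3 lower in Asxl1-/- against WT (medians 0.07, -0.03 and -0.09). The shares called were 25%, 32.1% and 17.9%, against 44.3%, 53.5% and 22.5% of all genes. Knl1, the scaffold that recruits Bub1, fell by 0.72 ± 0.09 in Asxl1-/- against WT (adjusted p = 0.000946).

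Among the motors and microtubule-associated proteins, Kif23 had the greatest difference of any member in Jak2V617F against WT. Kif23 is the motor of centralspindlin, which bundles microtubules between the separating chromosomes and calls in the division furrow. It had 111, 104 and 115 CPM in Asxl1-/-Jak2V617F, against 77.8, 78 and 86.2 CPM in Jak2V617F, with 102 and 103 CPM in Asxl1-/- and 127, 158 and 151 CPM in WT. The 8 mutant libraries lay below WT, with Jak2V617F lowest. It fell by 0.40 ± 0.09 in Asxl1-/-Jak2V617F (adjusted p = 0.0177), by 0.85 ± 0.09 in Jak2V617F (adjusted p = 1.55e-05) and by 0.50 ± 0.10 in Asxl1-/- (adjusted p = 0.00743), each against WT, and rose by 0.45 ± 0.09 in Asxl1-/-Jak2V617F against Jak2V617F (adjusted p = 0.00188). Nusap1, which bundles microtubules near chromosomes, had 113, 125 and 130 CPM in Asxl1-/-Jak2V617F, against 98.4, 90.7 and 87.3 CPM in Jak2V617F, with 128 and 127 CPM in Asxl1-/- and 136, 139 and 136 CPM in WT. It fell by 0.57 ± 0.07 in Jak2V617F against WT (adjusted p = 6.42e-05) and rose by 0.42 ± 0.07 in Asxl1-/-Jak2V617F against Jak2V617F (adjusted p = 0.000851). Prc1, which holds antiparallel microtubules of the midzone together, had 116.7, 123.5 and 148.5 CPM in Asxl1-/-Jak2V617F, against 120.1, 119.5 and 124.3 CPM in Jak2V617F, with 118.8 and 109.2 CPM in Asxl1-/- and 136.2, 161.2 and 157.1 CPM in WT. It fell by 0.32 ± 0.10 in Jak2V617F (adjusted p = 0.016) and by 0.41 ± 0.11 in Asxl1-/- (adjusted p = 0.0227), each against WT. Kif11, the motor that pushes spindle poles apart, averaged 266 ± 21.5 CPM in Asxl1-/-Jak2V617F, against 230 ± 7.41 CPM in Jak2V617F, with 271 ± 0.212 CPM in Asxl1-/- and 299 ± 17.9 CPM in WT (SD, n = 2 for Asxl1-/- and 3 for the others). It fell by 0.38 ± 0.08 in Jak2V617F against WT (adjusted p = 0.00172) and rose by 0.21 ± 0.08 in Asxl1-/-Jak2V617F against Jak2V617F (adjusted p = 0.0491). Tpx2, which activates Aurora A on the spindle, averaged 238 ± 2.67 CPM in Asxl1-/-Jak2V617F, against 202 ± 7.92 CPM in Jak2V617F (SD, n = 3 each), a rise of 0.23 ± 0.06 (adjusted p = 0.0111). Kif2c, Kif4 and Kif20a passed in none of the 5 comparisons.

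**Figure D4:**
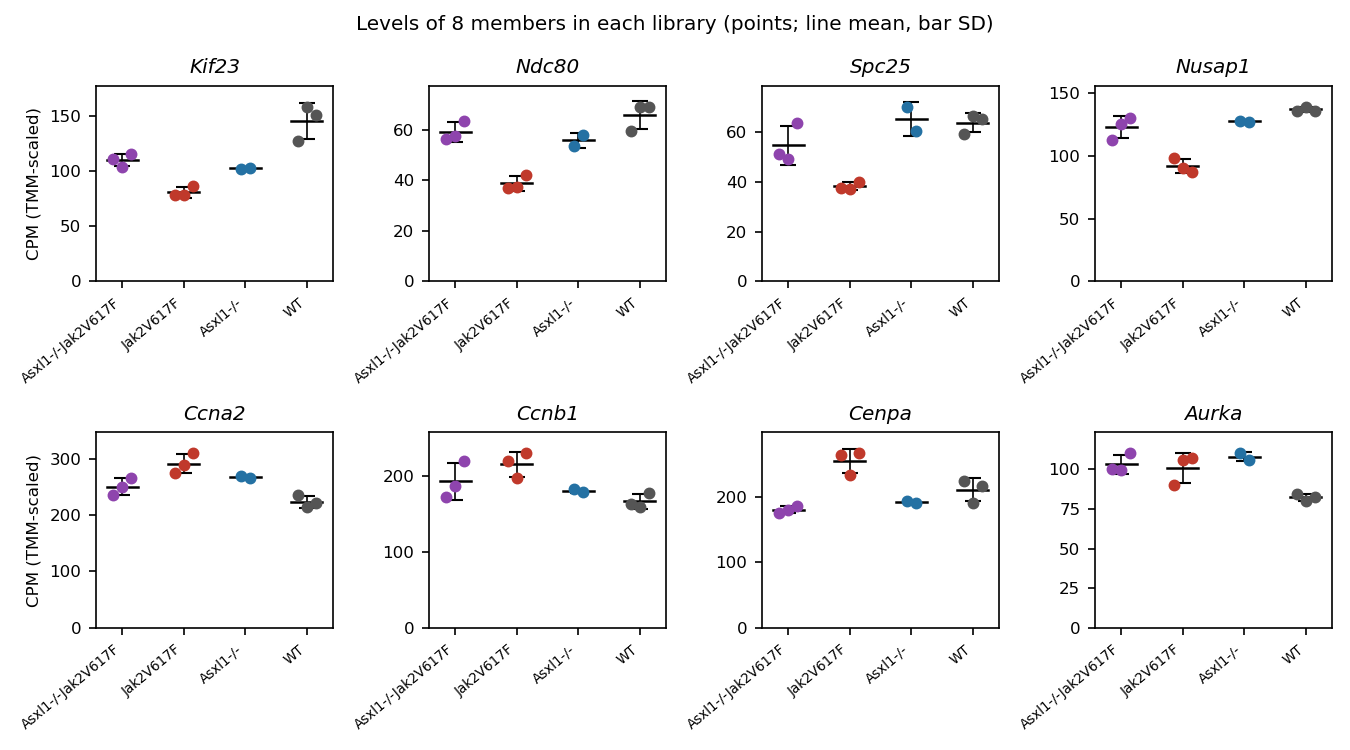
CPM of 8 members in each library (points), with the mean (line) and SD (bar) of each genotype, from 0. Kif23, Ndc80, Spc25 and Nusap1 are lowest in Jak2V617F, Ccna2 and Cenpa are highest there, and Aurka lies between 90.2 and 110 CPM in the 8 mutant libraries, above the 79.8 to 84.4 CPM of WT.

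Both cytokinesis members, Ect2 and Anln, were lower in Jak2V617F than in WT. Outside the members, Racgap1 and Cep55 were lower there too. They come from a list of 35 genes with 4 higher and 14 lower, at log2 values of -2.03 to 0.50. Ect2, which centralspindlin recruits to switch on RhoA at the furrow, had 98.4, 104 and 99.9 CPM in Asxl1-/-Jak2V617F, against 75.2, 76.2 and 73.5 CPM in Jak2V617F, with 97.8 and 94.5 CPM in Asxl1-/- and 93.7, 91.7 and 98.6 CPM in WT. All 3 Jak2V617F libraries were below the other 8. It rose by 0.42 ± 0.06 in Asxl1-/-Jak2V617F over Jak2V617F (adjusted p = 0.000255) and fell by 0.34 ± 0.06 in Jak2V617F against WT (adjusted p = 0.000918). Anln, the furrow scaffold anillin, had 113.9, 119.3 and 112.2 CPM in Asxl1-/-Jak2V617F, against 108.9, 121.3 and 114 CPM in Jak2V617F, with 121.9 and 122.9 CPM in Asxl1-/- and 133.2, 133.8 and 145 CPM in WT. The 8 mutant libraries lay below WT. It fell by 0.25 ± 0.07 in Asxl1-/-Jak2V617F (adjusted p = 0.0335) and by 0.26 ± 0.07 in Jak2V617F (adjusted p = 0.00786), each against WT. Outside the members, Racgap1, the other subunit of centralspindlin, had 164, 173 and 185 CPM in Asxl1-/-Jak2V617F, against 114, 123 and 114 CPM in Jak2V617F, with 183 and 179 CPM in Asxl1-/- and 175, 212 and 194 CPM in WT. It rose by 0.57 ± 0.08 in Asxl1-/-Jak2V617F over Jak2V617F (adjusted p = 0.000203) and fell by 0.72 ± 0.08 in Jak2V617F against WT (adjusted p = 2.64e-05). Cep55, which brings the abscission machinery to the midbody, had 49, 46 and 43.5 CPM in Asxl1-/-Jak2V617F, against 8.59, 12.1 and 11.6 CPM in Jak2V617F, with 41.2 and 38.5 CPM in Asxl1-/- and 41.6, 47.8 and 42.4 CPM in WT. Its rise in Asxl1-/-Jak2V617F against Jak2V617F was 2.10 ± 0.13 (adjusted p = 4.39e-07), and it fell by 2.03 ± 0.13 in Jak2V617F against WT (adjusted p = 4.96e-07). Of the 35 other spindle, mitotic entry and cytokinesis genes to which both belong, 15 were higher and 3 lower in Asxl1-/-Jak2V617F against Jak2V617F, 4 higher and 14 lower in Jak2V617F against WT, and 2 higher and 7 lower in Asxl1-/- against WT (medians 0.17, -0.20 and -0.09). The shares called were 51.4%, 51.4% and 25.7%, near the 44.3%, 53.5% and 22.5% of all genes.

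Of Mki67 and Top2a, both widely used marks of dividing cells, Mki67 was lower in Asxl1-/- than in WT and Top2a lower in Jak2V617F than in WT, and both had an interaction above 0. Mki67, Ki-67, which coats mitotic chromosomes, had 1108, 1080 and 1172 CPM in Asxl1-/-Jak2V617F, against 1253, 1344 and 1228 CPM in Jak2V617F, with 769 and 748 CPM in Asxl1-/- and 1127, 1355 and 1326 CPM in WT. Both Asxl1-/- libraries were far below the rest. It fell by 0.74 ± 0.10 in Asxl1-/- against WT (adjusted p = 0.00184) and rose by 0.56 ± 0.10 in Asxl1-/-Jak2V617F against Asxl1-/- (adjusted p = 0.012). Jak2V617F and WT differed by 0.01 ± 0.09 (adjusted p = 0.959), and Asxl1-/-Jak2V617F and Jak2V617F by -0.19 ± 0.09 (adjusted p = 0.117). Top2a, the topoisomerase that untangles sister chromatids, had 837, 899 and 994 CPM in Asxl1-/-Jak2V617F, against 671, 742 and 768 CPM in Jak2V617F, with 796 and 789 CPM in Asxl1-/- and 843, 955 and 981 CPM in WT. Jak2V617F was lowest. Top2a rose by 0.32 ± 0.10 in Asxl1-/-Jak2V617F over Jak2V617F (adjusted p = 0.0161) and fell by 0.35 ± 0.10 in Jak2V617F against WT (adjusted p = 0.00866), while Asxl1-/- differed from WT by -0.22 ± 0.11 (adjusted p = 0.151). Condensin and cohesin, 17 genes that shape and hold chromosomes, had 6 higher and 2 lower in Asxl1-/-Jak2V617F against Jak2V617F, 1 higher and 4 lower in Jak2V617F against WT, and 0 higher and 5 lower in Asxl1-/- against WT (medians 0.01, -0.06 and -0.22). Of these 17 genes 47.1%, 29.4% and 29.4% were called, against 44.3%, 53.5% and 22.5% of all genes. Sgo2a, which protects centromeric cohesin, rose by 0.59 ± 0.12 in Asxl1-/-Jak2V617F over Jak2V617F (adjusted p = 0.00158) and fell by 0.77 ± 0.12 in Jak2V617F against WT (adjusted p = 0.000175).

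How firmly these calls stood differed between comparisons. For Asxl1-/-Jak2V617F against Jak2V617F, 7 of the 16 calls were kept under each of the 15 alternatives run, namely Ttk, Cenpa, Ndc80, Spc25, Kif23, Nusap1 and Ect2. Kif11 lost its call in 12 of the 15 and Aurkb in 10. The count of higher members was 9 without Jak2V617F 1 or without Jak2V617F 2, and that of lower members, Cenpa and Ccna2, was 1 without Asxl1-/-Jak2V617F 1 or 2 or without Jak2V617F 2 or 3. For Jak2V617F against WT, 11 of 18 calls were kept throughout, those of Ccna2, Ccnb1, Incenp, Ndc80, Spc25, Kif11, Kif23, Nusap1, Anln, Ect2 and Top2a. The 5 higher members became 8 without Jak2V617F 2, 10 without WT 1 and 3 without WT 2. In Asxl1-/- against WT, Spc24 lost its call in 10 of 14 alternatives, and Ccna2, Birc5 and Mad2l1 lost theirs in 9 each. Of the 14 calls of that comparison, 2 were kept under each of the 14 alternatives, Cenpe and Mki67. Its 8 higher members became 0 without Asxl1-/- 1, 1 without Asxl1-/- 2, and 2 without WT 2 or WT 3, and its 6 lower members became 2 and 3 without Asxl1-/- 1 and Asxl1-/- 2. With a term for sex, which rests on Jak2V617F 2 as the single library that differs from its group, 1 was higher and 3 were lower. Over all genes, 502 were called in Asxl1-/- against WT with that term, against 3664 without it. None of the 4 calls in Asxl1-/-Jak2V617F against WT nor of the 3 against Asxl1-/- was kept throughout. In the first, the higher count ran from 0 without WT 2 or WT 3 to 4 without WT 1, and was 1 without any Asxl1-/-Jak2V617F library. The lower count was 0 without Asxl1-/-Jak2V617F 2, WT 2 or WT 3, 1 without Asxl1-/-Jak2V617F 1 and 4 without Asxl1-/-Jak2V617F 3. In the second, leaving out either Asxl1-/- library gave 0.

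Gene length moved with the fold changes against WT, most closely in Asxl1-/-. It is the length given with the deposited counts, not the span from gene start to gene end. Over the 35 members, the log2 fold change of Asxl1-/- against WT had a Spearman correlation of -0.76 with gene length, a description over genes of the same libraries. Of the 11 members under 4000 bases, 6 were higher and 1 lower, with a median of 0.27, and of the 7 of 8000 bases or more, 1 was higher and 4 lower, with a median of -0.41. Of all genes with a mean log2 CPM above 5, 41.7% were higher and 0.876% lower under 4000 bases, and 4.36% were higher and 32.1% lower at 8000 bases or more. The same order held for the medians of those genes. The median was 0.33 for 2396 genes under 4000 bases, 0.07 for 2558 genes of 4000 to 8000 bases and -0.20 for 1352 genes of 8000 bases or more. With gene length as an offset, chosen after seeing the data, 2 members were higher and 5 lower in Asxl1-/- against WT. The rank correlation with length was 0.10 in Asxl1-/-Jak2V617F against Jak2V617F, -0.45 in Jak2V617F against WT, -0.62 in Asxl1-/-Jak2V617F against WT and 0.53 in Asxl1-/-Jak2V617F against Asxl1-/-. For the interaction of Asxl1 loss with Jak2V617F it was 0.61. Medians of all genes above the same level, from short to long, were 0.19, 0.06 and -0.02 in Jak2V617F against WT. They were 0.22, 0.07 and -0.01 in Asxl1-/-Jak2V617F against WT. In Asxl1-/-Jak2V617F against Asxl1-/- the order was reversed, at -0.12, 0.02 and 0.17. In Asxl1-/-Jak2V617F against Jak2V617F they were 0.01, -0.01 and -0.02. The part of gene length in these results was not tested.

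**Figure D5:**
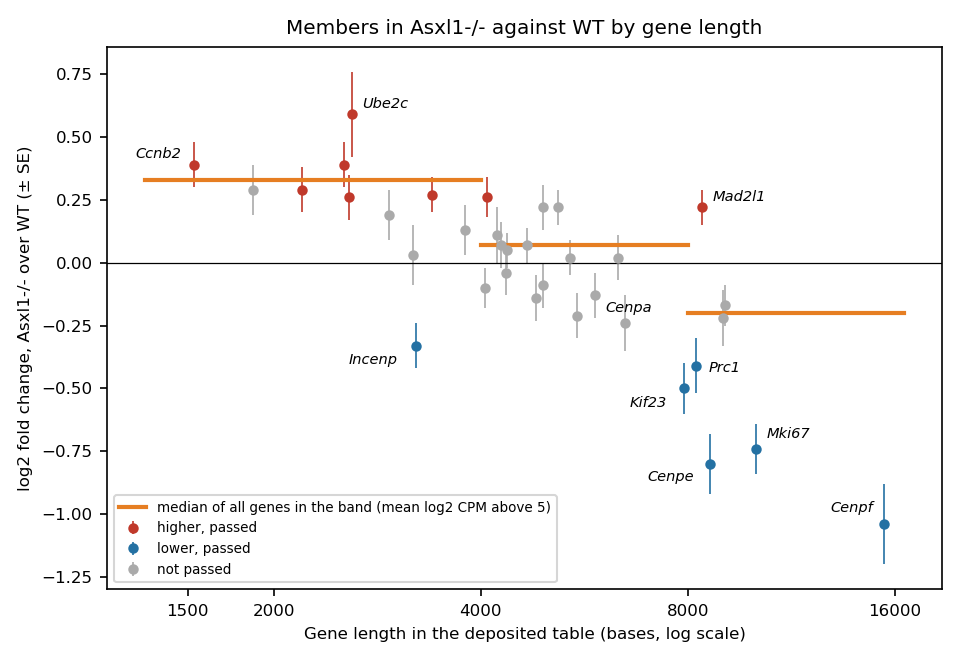
Log2 fold change of Asxl1-/- against WT with its SE for each of the 35 members, against gene length on a log axis, coloured as called. Orange lines give the median of all genes above a mean log2 CPM of 5 in 3 length bands (0.33, 0.07 and -0.20). Cenpf, Mki67 and Cenpe lie below the line of their band, as do Kif23 and Incenp in theirs.

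For some members, the difference between libraries with and without Asxl1 loss was unequal on the 2 Jak2 backgrounds. On the WT background it cannot be told apart from sex. The interaction, the difference of Asxl1-/-Jak2V617F against Jak2V617F minus that of Asxl1-/- against WT, passed for 18 of the 35 members, 13 above 0 and 5 below, 51.4% against 41.6% of all genes (23.7% above and 17.9% below). Of genes with a mean log2 CPM above 5, 16.9%, 25.5% and 39.3% were above 0 in the length bands from short to long. Below 0 were 41.6%, 25.2% and 13.7%. Of the 18, 3 passed in both backgrounds, Kif23, Incenp and Ccna2, and those had opposite signs. Kif23 rose by 0.45 ± 0.09 in the Jak2V617F background and fell by 0.50 ± 0.10 in the WT background (interaction 0.95 ± 0.14, adjusted p = 0.000368). Incenp likewise had 0.28 and -0.33 (interaction 0.61 ± 0.12, adjusted p = 0.00217). Ccna2 had the reverse, -0.22 and 0.26 (interaction -0.48 ± 0.11, adjusted p = 0.00632). In Asxl1-/- against WT, Kif23 lost its call in 3 of 14 alternatives, Incenp in 6 and Ccna2 in 9. In Asxl1-/-Jak2V617F against Jak2V617F, Kif23 lost its call in 0 of 15, Incenp in 1 and Ccna2 in 7. With the sex term, Kif23, Cenpe and Cenpf were the 3 of the 18 that kept their interaction call, all above 0. There, 1 other member, Ccnb2, passed below 0. With gene length as an offset, 6 of the 18 lost their call. The 5 members below 0 became 8 without Jak2V617F 2, 3 without Asxl1-/-Jak2V617F 2, 2 without Asxl1-/-Jak2V617F 1 or WT 3, and 1 without Jak2V617F 3, WT 2 or either Asxl1-/- library.

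Several regulators of the programme changed as well. Foxm1, which switches on G2 and mitosis genes, had 129, 120 and 105 CPM in Asxl1-/-Jak2V617F, against 82.1, 94.3 and 86.8 CPM in Jak2V617F, with 110 and 114 CPM in Asxl1-/- and 134, 132 and 137 CPM in WT. It rose by 0.42 ± 0.09 in Asxl1-/-Jak2V617F over Jak2V617F (adjusted p = 0.00182) and fell by 0.61 ± 0.09 in Jak2V617F against WT (adjusted p = 0.000102). Mybl2, the B-MYB partner of MuvB, had 180, 161 and 154 CPM in Asxl1-/-Jak2V617F, against 150, 144 and 151 CPM in Jak2V617F, with 138 and 126 CPM in Asxl1-/- and 142, 115 and 123 CPM in WT, and passed for Asxl1-/-Jak2V617F against WT alone among the 5 comparisons (0.38 ± 0.09, adjusted p = 0.0216). E2f4, the E2F of the repressive DREAM complex, had 199, 215 and 248 CPM in Asxl1-/-Jak2V617F, against 378, 364 and 390 CPM in Jak2V617F, with 198, 143 and 178 CPM in WT. It fell by 0.77 ± 0.12 in Asxl1-/-Jak2V617F over Jak2V617F (adjusted p = 0.000323) and rose by 1.13 ± 0.12 in Jak2V617F against WT (adjusted p = 1.65e-05). E2f2, an activating E2F, did the opposite, with 0.72 ± 0.14 (adjusted p = 0.00134) and -0.92 ± 0.14 (adjusted p = 0.000191). E2f1, also an activator, rose by 0.35 ± 0.11 in Asxl1-/-Jak2V617F over Jak2V617F (adjusted p = 0.0206) and differed by -0.20 ± 0.11 in Jak2V617F against WT (adjusted p = 0.144). Of the 20 regulators listed, 8 were higher and 5 lower in Asxl1-/-Jak2V617F against Jak2V617F, 4 higher and 6 lower in Jak2V617F against WT, and 1 higher and 2 lower in Asxl1-/- against WT (medians 0.07, 0.03 and -0.03). Of these 20 genes 65%, 50% and 15% were called, against 44.3%, 53.5% and 22.5% of all genes. Erythroid and granulocyte marker sums differ between the same libraries, and their part in these changes was not tested.

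Upstream of mitosis, G1 regulators were called in both directions, while more replication genes were higher than lower in Jak2V617F against WT. Of 14 G1 cyclins, kinases and Cdk inhibitors tested, 4 were higher and 3 lower in Asxl1-/-Jak2V617F against Jak2V617F, and 5 higher and 5 lower in Jak2V617F against WT (medians 0.19 and -0.01), which is 50% and 71.4% of them against 44.3% and 53.5% of all genes. Cdkn2d, the Cdk4 and Cdk6 inhibitor p19Ink4d, had 64, 51.2 and 53.4 CPM in Asxl1-/-Jak2V617F, against 17.1, 18 and 12 CPM in Jak2V617F, with 75 and 82.1 CPM in Asxl1-/- and 52.3, 73 and 65.2 CPM in WT. It rose by 1.84 ± 0.17 in Asxl1-/-Jak2V617F over Jak2V617F (adjusted p = 6.32e-06) and fell by 2.02 ± 0.17 in Jak2V617F against WT (adjusted p = 2.81e-06). Cdkn1b, p27, fell by 0.45 ± 0.16 in Jak2V617F against WT (adjusted p = 0.0349). Cdkn1a, p21, passed in none of the comparisons, with 16.1, 11.6 and 23.7 CPM in Asxl1-/-Jak2V617F, against 3.44, 10.9 and 10.3 CPM in Jak2V617F, with 12 and 11.2 CPM in Asxl1-/- and 10.4, 6.2 and 5.36 CPM in WT. Cdkn1c, p57, stayed at or below 1.07 CPM and passed in none. Of 32 DNA replication genes, 17 were higher and 2 lower in Jak2V617F against WT with a median of 0.26, where 24.4% of all genes were higher and 29.2% lower. Among the higher were the helicase subunit Mcm4 (0.58 ± 0.08, adjusted p = 9.61e-05) and the licensing factor Cdc6 (0.65 ± 0.10, adjusted p = 0.000183). In Asxl1-/-Jak2V617F against Jak2V617F, 4 were higher and 5 lower (median -0.03), and in Asxl1-/- against WT 4 were higher and 0 lower (median 0.18). That is 28.1% and 12.5% of them, against 44.3% and 22.5% of all genes. In Asxl1-/-Jak2V617F against WT 7 were higher and 0 lower (median 0.21), where 8.3% of all genes were higher and 6.76% lower. Genes with a mean log2 CPM above 5 had larger shares higher in most length bands. From short to long, 44%, 35.8% and 31.2% of these were higher in Jak2V617F against WT. In Asxl1-/-Jak2V617F against WT the shares were 26.7%, 13.5% and 8.28%. The summed CPM of the 35 mitosis genes over that of the replication genes was 0.949 to 0.971 in Asxl1-/-Jak2V617F, 0.814 to 0.889 in Jak2V617F, 0.922 and 0.923 in Asxl1-/- and 1 to 1.24 in WT. The ranges of the 4 genotypes did not overlap, and WT was highest and Jak2V617F lowest. Mki67 and Top2a, of 10061 and 9013 bases, weigh heavily in the mitosis sum. The part of these 2 genes and of gene length in the order of the genotypes was not tested.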

How the data were processed

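RNA of 11 libraries in 4 genotypes was sequenced after standard Illumina preparation, per the labels' protocols. The deposited table gives unnormalised counts for each Ensembl gene, per the file headers, with coordinates and gene length. The submitters' processing notes name mm10, featureCounts 1.5.0-p3 and HISAT2 2.0.5, without roles. The strand setting is not given in the sources used here, so reads of overlapping antisense genes cannot be told apart.

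Genes were filtered with filterByExpr by group, given TMM factors and tested by the quasi-likelihood method of edgeR 4.0.16 under R 4.3.3, with robust dispersion, in 1 fit of all 11 libraries with a genotype factor. The common biological coefficient of variation was 19.7%. P-values were adjusted by Benjamini and Hochberg over 16262 genes, with a threshold of 0.05. SE is the absolute log2 fold change over the square root of F. The test was run on simulated data. No label ties replicates to separate animals: p-values then measure only spread among libraries, which may be technical. Chi-square per degree of freedom between replicates was 8.44 to 37.

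The members and lists were chosen with earlier results of these data known. Values in every library are given for 10 preset members and, per comparison, for up to 6 members of smallest adjusted p in each direction. From other lists, up to 4 genes per direction may be named, and always Foxm1, Mybl2, E2f1, E2f2, E2f4, Cdkn1a, Cdkn1b and Cdkn1c. Alternatives were DESeq2 1.42.0, median-of-ratios or library size scaling, no filter or a stricter one (CPM of 1 in 3 libraries), the compared groups alone, a replicate block, a sex term and leaving out each library. A gene-length offset was chosen after seeing the data. Promoter motifs were searched with Python 3.11.15.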

Additional observations from a re-analysis of the deposited data

Results flagged for a closer look

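For 18 of the 35 members the effect of Asxl1 loss differed between the Jak2V617F and the WT background by the interaction term of edgeR's quasi-likelihood fit. That is 51.4% of the members, where 41.6% of all genes passed. In the WT background, Asxl1 loss and sex cannot be told apart. The values are the log2 effect in Jak2V617F minus that in WT.

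Among kinetochore and centromere genes the differences were 0.97 for Cenpe (adjusted p = 0.000881), 1.13 for Cenpf (adjusted p = 0.0018), 0.85 for Ndc80 (adjusted p = 0.000886), 0.48 for Spc25 (adjusted p = 0.0349) and -0.36 for Cenpa (adjusted p = 0.0335). Ndc80 had an effect of 0.61 in Jak2V617F and -0.24 in WT. Cenpf had 0.09 and -1.04, so its difference came mostly from the WT background.

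Among motors, midzone and cytokinesis genes they were 0.95 for Kif23 (adjusted p = 0.000368), 0.52 for Nusap1 (adjusted p = 0.00378), 0.50 for Prc1 (adjusted p = 0.0178), 0.35 for Kif11 (adjusted p = 0.034) and 0.40 for Ect2 (adjusted p = 0.0066). Of the chromosome genes, Mki67 had 0.56 (adjusted p = 0.00768) and Top2a 0.55 (adjusted p = 0.0104).

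For the passenger scaffold Incenp the difference was 0.61 (adjusted p = 0.00217) and for the checkpoint kinase Ttk 0.46 (adjusted p = 0.0136). Below 0 lay Ccna2 at -0.48 (adjusted p = 0.00632), Aurka at -0.36 (adjusted p = 0.0334), Plk1 at -0.32 (adjusted p = 0.0419) and Ube2c at -0.66 (adjusted p = 0.0394). Kif23, Cenpe and Cenpf kept the call under all 19 alternatives, and 15 of the 18 lost it with the sex term.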

How the results depend on the processing

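The counts of members that moved by over 1.5 times are grouped by setting, each against its value in the report. With library size scaling, which shifted the median of all genes by -0.11 in Asxl1-/-Jak2V617F against Jak2V617F, -0.16 in Asxl1-/- against WT and -0.08 in Asxl1-/-Jak2V617F against WT, the first comparison had 6 members higher and 4 lower, Jak2V617F against WT 8 higher, Asxl1-/- against WT 0 higher and 13 lower, Asxl1-/-Jak2V617F against WT 0 higher, and the interaction 2 below 0. With DESeq2, Jak2V617F against WT had 8 higher, Asxl1-/-Jak2V617F against WT 4 higher and the interaction 8 below 0. Median-of-ratios scaling and the stricter filter each gave 8 higher in Jak2V617F against WT. With no filter, Asxl1-/-Jak2V617F against Jak2V617F had 1 lower, Asxl1-/- against WT 3 higher, Asxl1-/-Jak2V617F against WT 1 higher and 1 lower, and the interaction 1 below 0. With the compared groups alone, the values were 1 lower, 5 higher in Asxl1-/- against WT, and 1 higher and 0 lower in Asxl1-/-Jak2V617F against WT. With the sex term, Asxl1-/-Jak2V617F against Jak2V617F had 1 lower, Asxl1-/- against WT 1 higher and 3 lower, Asxl1-/-Jak2V617F against Asxl1-/- 0 higher, and the interaction 3 above and 1 below 0. With the gene-length offset, chosen after seeing the data, Asxl1-/- against WT had 2 higher, Asxl1-/-Jak2V617F against WT 1 higher and 1 lower, and the interaction 3 below 0. The cause of these changes was not tested.

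Leaving out each library in turn gave 9 to 13 higher and 1 to 3 lower in Asxl1-/-Jak2V617F against Jak2V617F, 3 to 10 higher and 10 to 13 lower in Jak2V617F against WT, 0 to 9 higher and 2 to 6 lower in Asxl1-/- against WT, 0 to 4 higher and 0 to 4 lower in Asxl1-/-Jak2V617F against WT, 0 to 3 higher in Asxl1-/-Jak2V617F against Asxl1-/-, and 10 to 13 above and 1 to 8 below 0 for the interaction. A group of Asxl1-/- reduced to 1 library was assumed to vary like the others.

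No called member turned its sign under any alternative run. Among members not past the threshold, library size scaling turned the sign of 11 in Asxl1-/-Jak2V617F against Jak2V617F and 8 in Asxl1-/- against WT, with values of at most 0.11 and 0.13 in size before, and the gene-length offset turned 4 in Asxl1-/- against WT. Of the uncalled values given with a p, Mki67 in Jak2V617F against WT was -0.01 with no filter, -0.03 with the sex term, and -0.03 to 0.05 leaving out a library. Nuf2 in Asxl1-/-Jak2V617F against Jak2V617F was 0.00 with library size scaling, and Cdc20 in Asxl1-/- against WT -0.01 with the gene-length offset.

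Libraries with the same replicate number did not deviate together (correlations of -0.20 to 0.17, and 5 of 18 best matches with the own number). No pairing by number was found, but with 2 or 3 libraries per group the check cannot exclude one. The replicate block gave 14 higher and 2 lower in Asxl1-/-Jak2V617F against Jak2V617F, 6 and 14 in Jak2V617F against WT, and 7 and 6 in Asxl1-/- against WT. The summed CPM of the members moved with library size scaling by more than the spread between replicates in 6 of 11 libraries.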
